A study of Ovis aries with 57 samples.

Results

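The extracellular matrix gene set held 71 genes of the 25197 features measured in sheep (Ovis aries) uterine epithelium and conceptus during early pregnancy. Members were taken by name: 43 genes whose symbol has the form of a collagen alpha chain, 12 laminin chains, and 16 further genes, which are FN1, POSTN, EFEMP1, EFEMP2, TINAGL1, FBN1, FBLN1, FBLN5, NID1, NID2, SPARC, LUM, DCN, BGN, HSPG2 and TNC. AGRN was on the list of names, and no feature matched it. The rule uses names alone, but its members were proposed with earlier results of these data known. POSTN, COL1A1, EFEMP1 and TINAGL1 had been picked out beforehand as its markers.

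Fibrillar collagens such as types I, III and V form the rope-like fibres of connective tissue, while small leucine-rich proteoglycans (LUM, DCN, BGN) bind those fibres and SPARC binds collagen as it is laid down. Basement membranes, the thin sheets under epithelia, are built from laminin trimers of an alpha, a beta and a gamma chain and from a network of collagen IV, joined by nidogens (NID1, NID2) and perlecan (HSPG2). In ruminants the trophoblast elongates in the uterine lumen and attaches to the luminal epithelium without early invasion, and fibronectin (FN1) and other matrix proteins serve as ligands for integrins at that surface.

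The series profiled the conceptus and the uterine epithelia of pregnant ewes, luminal (LE) and glandular (GE), by RNA sequencing. LE and GE were cut by laser from frozen uterine sections stained with cresyl violet, taken from the middle of the horn ipsilateral to the ovary, on days 10, 12, 14, 16 and 20, with 4 libraries per tissue and day. A few nanograms of their RNA were amplified from a single primer (SPIA) before sequencing. Both epithelia came from 1 slide per animal, but which LE library goes with which GE library is not given. Among LE and GE libraries only those of day 14 carry a B before their number, and its meaning is not given. Day 14 and whatever that label marks cannot be told apart. Conceptuses were flushed out on day 12 (5 libraries) and on days 14, 16 and 20 (4 libraries each). By the series' design text the day 12 conceptus RNA was amplified and that of later days was not, so day and preparation cannot be told apart between days 12 and 14. No treatment or genotype is named for any group, and all development was in utero. Libraries of a tissue were treated as separate animals, and p-values measure the spread between libraries. LE and GE libraries can share an animal, and the main tests of LE against GE leave that pairing out. A block on neighbouring numbers was run as an alternative.

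Depth, recovered from the steps between low values and given in units of 1000000 reads, ran from 8.00 to 26.0 mapped reads per library in LE, from 7.84 to 22.3 in GE and from 14.6 to 27.4 in conceptuses. Exon reads, in the same unit, numbered 1.92 to 7.59 in LE, 1.75 to 6.37 in GE and 4.89 to 14.7 in conceptuses. Day 14 LE libraries were the narrowest, with 4528 to 5997 genes at 1 RPKM or more (exon reads relative to a gene's exon length and the library's mapped reads), against 4528 to 8741 over all LE libraries. In GE the day 14 libraries had 6539 to 7916 such genes, against 6539 to 9161 over all GE libraries. The epithelial marker EPCAM had group means of 63.5 to 216 RPKM in LE and of 161 to 238 RPKM in GE. The gland transcription factor FOXA2 was between 0 and 0.06 RPKM in LE libraries and between 0.04 and 2.25 RPKM in GE libraries. The sum of all 6 listed gland markers did not always separate the tissues. Its medians in LE and GE were 1240 and 6223 RPKM on day 10, 384 and 897 on day 12, and 2667 and 9552 on day 20. LE lay higher on day 14 (1141 and 868) and on day 16 (3421 and 2714). Summed stromal markers (17 of 18 listed genes have a row) were not low in every epithelial library. They ran from 12.9 to 609 RPKM in LE and from 19.9 to 151 RPKM in GE. VIM, an intermediate filament gene of mesenchymal cells, was at 495 RPKM in day 14 LE replicate B06 and at 264 RPKM in day 20 LE replicate 19. VIM alone made most of the stromal sum in both, which was 609 RPKM in B06 and 276 RPKM in replicate 19.

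At 1 RPKM or more in at least 4 libraries were 24 of the 71 genes in LE (33.8%, against 36.6% of all genes), 22 in GE (31.0%, against 39.9%) and 44 in the conceptus (62.0%, against 48.0%). Conceptus libraries also ranged higher in exon reads, and those after day 12 were not amplified. The set took 0.287% ± 0.0831 of exon reads in LE on day 10, 0.360% ± 0.0965 on day 12, 0.442% ± 0.0624 on day 14, 0.123% ± 0.0306 on day 16 and 0.196% ± 0.0627 on day 20 (SD, n = 4). In GE the share was 0.240% ± 0.0227, 0.227% ± 0.0215, 0.389% ± 0.0950, 0.119% ± 0.0142 and 0.175% ± 0.0662 on the same days (SD, n = 4). In both epithelia the mean share was highest on day 14, the day of the libraries labelled with a B, and lowest on day 16. In the conceptus it was 0.669% ± 0.217 (SD, n = 5) on day 12, then 0.458% ± 0.0623, 1.36% ± 0.690 and 7.19% ± 3.99 on days 14, 16 and 20 (SD, n = 4). The 4 day 20 conceptuses ranged from 3.82% to 13.0%.

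**Figure D1:**
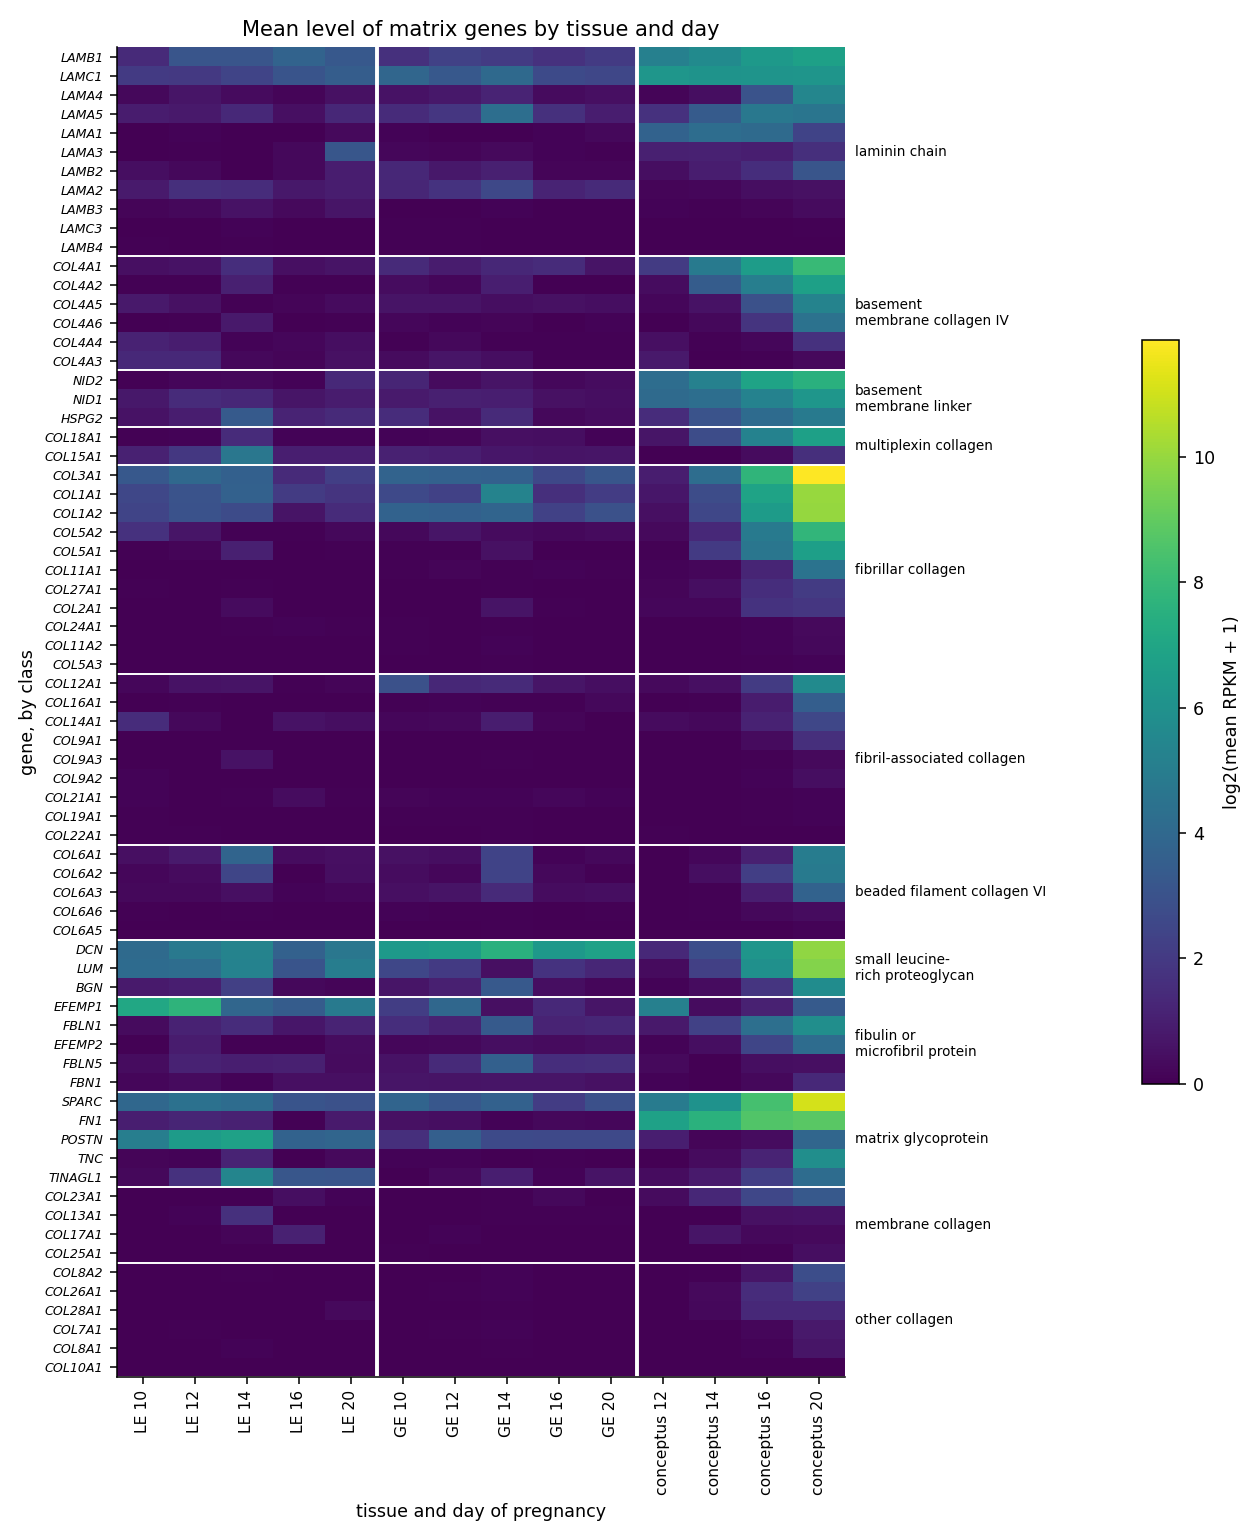
Mean level of 70 of the 71 matrix genes (rows, grouped by class) in each tissue and day (columns), as log2 of mean RPKM + 1. Few rows are bright in LE, where EFEMP1, POSTN, TINAGL1, LUM and DCN stand out, or in GE, where DCN is the brightest. Most classes brighten in the conceptus between day 14 and day 20.

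In LE the leading matrix gene was EFEMP1, the gene of fibulin-3, a secreted glycoprotein of elastic fibre and basement membrane zones. It ranked 105 of all genes by mean RPKM on day 10 and again on day 12. Its RPKM in the 4 day 10 libraries was 96.8, 228, 100.0 and 132, in the day 12 libraries 171, 182, 116 and 366, and in the day 14 libraries 4.34, 41.7, 11.2 and 0. The day 12 and day 14 libraries did not overlap. On day 16 the libraries gave 26.2, 5.74, 6.83 and 0.490 RPKM, and on day 20 they gave 0, 108, 1.43 and 0, so a single day 20 library, replicate 19, was back at the day 10 level. EFEMP1 fell from day 12 to day 14 by 4.72 on the log2(RPKM + 1) scale (SE 1.18, limma adjusted p = 0.0124). The call was kept with each library left out in turn, and was lost when edgeR was run on reads recovered from the RPKM (adjusted p = 0.120).

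TINAGL1, a secreted relative of tubulointerstitial nephritis antigen found in basement membranes, went the other way in LE. Its RPKM was 0.240, 0.530, 0.01 and 0.01 on day 10, 6.09, 0.580, 0.440 and 1.96 on day 12, and 22.4, 31.0, 70.8 and 40.8 on day 14. Behind these values stood 1 to 37 reads per library on day 10 and 1376 to 4199 on day 14. On day 16 it was 13.5, 4.15, 7.30 and 7.27 RPKM, and on day 20 it was 2.85, 1.06, 11.2 and 15.4. Every day 14 library lay above every library of the other days. TINAGL1 rose by 3.88 in log2(RPKM + 1) from day 12 to day 14 (SE 0.62, limma adjusted p = 0.000966) and fell by 2.19 from day 14 to day 16 (SE 0.62, limma adjusted p = 0.0250). The rise was called with each library left out, while the fall was not called without B06, 27, 29 or 31 (highest adjusted p 0.0714) or with a pseudocount of 0.1.

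POSTN encodes periostin, a matricellular glycoprotein that binds collagen and integrins. LE libraries gave 20.4, 18.4, 54.9 and 38.3 RPKM on day 10, 104, 87.7, 47.6 and 119 on day 12, and 151, 98.9, 25.2 and 162 on day 14. They gave 4.95, 11.4, 11.7 and 20.7 RPKM on day 16 and 12.3, 22.5, 0.230 and 19.2 on day 20. The lowest day 14 library lay just above the highest day 16 library. POSTN fell from day 14 to day 16 by 2.91 in log2(RPKM + 1) (SE 0.75, limma adjusted p = 0.0150), a call lost without day 16 replicate 25 (adjusted p = 0.0526). VIM in the same tissue had means of 34.2, 181, 190 and 21.9 RPKM on days 10, 12, 14 and 16, and the summed stromal markers ranged over 36.1 to 48.3, 109 to 270, 48.5 to 609 and 20.1 to 63.0 RPKM. Of the 17 stromal markers, 9 reached 1 RPKM in a day 14 LE library, against 8, 10 and 8 on days 10, 12 and 16, and 3 were at 0 in all day 14 LE libraries, which were THY1, TWIST2 and TAGLN. Replicate B06, the day 14 LE library with the most VIM, had the lowest POSTN of its day, 25.2 RPKM. The part of stromal RNA in the POSTN levels was not tested.

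Counts of members called over the LE steps are given beside the share of all genes called. From day 10 to day 12, 1 of the 24 tested members changed (4.17%, limma adjusted p under 0.05, against 0.565% of all 9203 genes tested, 0.315% higher and 0.25% lower). That gene was COL14A1, a fibril-associated collagen, which fell by 1.26 in log2(RPKM + 1) (SE 0.27, adjusted p = 0.0305) from 1.34 to 2.49 RPKM on day 10 to 0.0200 to 0.270 on day 12. The call was lost in 6 of 8 fits that leave out a library, with a pseudocount of 0.1 and in edgeR on recovered reads. From day 12 to day 14, 1 member rose and 2 fell (12.5% of members against 13.1% of all genes, 3.39% higher and 9.76% lower), the second fall being COL4A3, which fell by 1.11 (SE 0.37, limma adjusted p = 0.0463) and lost its call in 7 of 8 such fits, with no filter, with TMM scaling and in edgeR. The count was 6 without day 14 replicate B08. A member passes the level filter through the days on which it is high, so these counts describe the genes that passed and not all 71.

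The step from day 14 to day 16 in LE held falls and no rises among members. Of the 24, 5 fell (limma; 20.8% of members, against 12.4% of all genes; 1.4% of all genes fell and 11% rose), the median member change was -0.78 in log2(RPKM + 1) and the median over all genes was 0.49. With trimmed-mean (TMM) scaling the median over all genes became 0.27. In edgeR on recovered reads it was -0.23, with 10 members called, 1 rise and 9 falls. The share of all genes that edgeR called is not given, so its count does not set members apart from other genes. Beside POSTN and TINAGL1 the fallers were COL15A1, COL3A1 and COL6A1. The count was 1 without day 16 replicate 25, 2 without replicate 29, and 3 without replicate 27 or day 14 replicate B06. Summed endothelial markers in LE ranged over 7.08 to 12.4 RPKM on day 12, 14.8 to 68.9 on day 14 and 8.80 to 12.5 on day 16. Of the 8 markers, 4, 3 and 3 reached 1 RPKM in an LE library of these days. Their part in the falls was not tested.

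COL15A1, a basement membrane zone collagen with chondroitin sulphate chains, had 4.71, 7.28, 86.3 and 3.27 RPKM on day 14 and 0.01, 0.71, 0.8 and 2.42 on day 16. The groups did not overlap, and B06, the library with the most VIM, was far above the other day 14 libraries. Its change was -2.67 (SE 0.73, limma adjusted p = 0.0211), not called without B06 (-1.70) or without 25 (highest adjusted p 0.0669). COL3A1, the type III fibrillar chain, had 13.4, 11.0, 18.0 and 2.60 RPKM on day 14 and 0.140, 2.62, 1.57 and 2.24 on day 16, so the groups touched. It fell by 2.11 (SE 0.61, limma adjusted p = 0.0268), a call lost without B06, 25 or 29 (highest adjusted p 0.0949). COL6A1, an alpha chain of beaded filament collagen VI, had 11.0, 39.6, 1.90 and 0.170 RPKM on day 14 and at most 0.510 on day 16, with overlap. It fell by 2.30 (SE 0.67, limma adjusted p = 0.0274), and 6 of 8 fits without 1 library lost the call, with a highest adjusted p of 0.0668 and a fall of 1.41 without B04. With no filter on low values none of the calls of COL15A1, COL3A1 and COL6A1 was kept.

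COL1A1, the alpha 1 chain of type I collagen, was not called at any LE step. Its RPKM was 1.76, 2.76, 1.34 and 13.3 on day 10, 4.16, 5.85, 1.63 and 17.5 on day 12, 17.3, 5.32, 10.2 and 14.8 on day 14, 2.73, 2.84, 3.68 and 3.68 on day 16, and 1.66, 1.29, 0.00869 and 6.72 on day 20. Day 14 lay above day 16 in all libraries, with a limma adjusted p of 0.135. The partner chain COL1A2, which joins COL1A1 in the same trimer, did not keep step with it: the ratio of the RPKM values ran from 0.526 to 44.4 among the 4 day 14 LE libraries. SPARC had 15.7, 30.3, 13.1 and 11.1 RPKM on day 14 and 3.24, 3.03, 2.34 and 21.8 on day 16, where replicate 31 alone lay in the day 14 range (limma adjusted p = 0.123). From day 16 to day 20 0 members were called by limma or edgeR and 0 had an unadjusted limma p under 0.05, where limma called 0.261% of all genes, 0.109% higher and 0.152% lower.

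In GE the leading matrix gene was DCN (decorin), which binds collagen fibrils. It ranked between 112 and 254 of all genes by mean RPKM on the 5 days. Its RPKM was 93.0, 78.2, 111 and 43.7 on day 10, 60.7, 97.4, 87.9 and 142 on day 12, 252, 36.6, 194 and 247 on day 14, 98.0, 64.8, 84.1 and 73.2 on day 16, and 128, 140.3, 93.5 and 73.5 on day 20. Of the day 14 libraries, 3 lay above the libraries of all other days and B03 lay below them. No step of DCN in GE was called, and its smallest limma adjusted p was 0.208, from day 14 to day 16.

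LAMA5, the alpha chain of widely expressed basement membrane laminins, peaked in GE on day 14. Libraries gave 0.740, 1.44, 1.69 and 3.04 RPKM on day 10, 3.73, 3.74, 1.95 and 1.43 on day 12, 16.4, 30.2, 21.9 and 4.88 on day 14, and 2.01, 1.36, 1.28 and 3.93 on day 16. On day 20 they gave 1.37, 1.34, 0.480 and 0.660. All day 14 libraries, with 592 to 4277 LAMA5 reads each, lay above those of every other day. LAMA5 rose by 2.21 in log2(RPKM + 1) from day 12 to day 14 (SE 0.46, limma adjusted p = 0.00295) and fell by 2.46 from day 14 to day 16 (SE 0.46, limma adjusted p = 0.00150). Both calls held with each library left out.

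COL1A1 in GE rose and fell over the same days. It had 5.80, 1.35, 6.5 and 7.20 RPKM on day 10 and 5.00, 5.09, 3.45 and 2.33 on day 12, then 2.19, 75.7, 36.2 and 41.3 on day 14. It returned to 3.50, 1.05, 1.47 and 2.18 on day 16 and had 4.77, 6.20, 1.37 and 1.17 on day 20. Of the day 14 libraries, 3 were far above day 12 and B01 was below it. The rise was 2.37 in log2(RPKM + 1) (SE 0.70, limma adjusted p = 0.0250), a call lost without 14, 16, B03 or B07 (highest adjusted p 0.0768) or with no filter on low values, and the later fall by 3.09 (SE 0.70, limma adjusted p = 0.00510) was kept in each such fit. COL1A2 had 9.10, 15.7, 10.1 and 10.6 RPKM on day 12, 5.62, 9.85, 25.2 and 12.7 on day 14, and 5.75, 4.51, 3.31 and 1.78 on day 16. It was not called at the first step and fell by 1.47 at the second (SE 0.43, limma adjusted p = 0.0240), lost without B05, 30 or 32. FBLN1 (fibulin-1) rose by 1.99 from day 12 to day 14 (SE 0.51, limma adjusted p = 0.0121) from 0.930 to 1.39 RPKM to 1.95 to 13.5, and fell by 2.04 afterwards (adjusted p = 0.00962).

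EFEMP1 fell from day 12 to day 14 in GE as it did in LE, from a lower start. GE libraries gave 1.26, 9.62, 2.11 and 0.620 RPKM on day 10, 17.5, 31.5, 3.01 and 6.42 on day 12, and 0.400, 1.19, 0 and 0 on day 14. On day 16 they gave 3.37, 2.69, 0.0800 and 0.190 RPKM, and on day 20 0.0800, 0.1, 2.28 and 0. The groups of days 12 and 14 did not overlap, and EFEMP1 fell by 3.13 in log2(RPKM + 1) (SE 0.66, limma adjusted p = 0.00328). LUM (lumican), also a fibril-binding proteoglycan, fell by 1.60 (SE 0.48, limma adjusted p = 0.0269) from 1.82 to 3.59 RPKM to 0 to 1.13, a call lost without 10, 14, 16 or B03 (highest adjusted p 0.0722), with no filter on low values and in edgeR on recovered reads.

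By count, limma called 0 of 22 members in GE from day 10 to day 12 (5 at an unadjusted p under 0.05, edgeR 0), where 0.527% of all genes were called, 0.179% higher and 0.348% lower. From day 12 to day 14, 3 rose and 2 fell (22.7% of members, against 16% of all 10049 genes, 6.29% higher and 9.68% lower), and without day 12 replicate 14 or 16 the count was 3. From day 14 to day 16, 7 fell and 0 rose (31.8% of members, against 17.5% of all genes; 4.89% of all genes fell and 12.6% rose). The median member change at that step was -0.83 in log2(RPKM + 1) and the median over all genes was 0.25, or 0.11 with TMM scaling. The 7 were LAMA5, COL1A1, FBLN1, COL1A2, SPARC, the laminin alpha 2 chain LAMA2 (fell by 1.29, adjusted p = 0.0158) and HSPG2 (fell by 1.03, adjusted p = 0.0453). SPARC had 10.5, 13.2, 19.5 and 4.02 RPKM on day 14 and 3.31, 2.18, 3.77 and 3.84 on day 16, without overlap, and fell by 1.43 (SE 0.42, limma adjusted p = 0.0247), lost without B05 or 28. Leaving out B05 gave 4 calls, and HSPG2 was lost in 7 of 8 such fits, with a pseudocount of 0.1 and with no filter. EdgeR on recovered reads gave 17 falls, but the share of all genes it called is not given. That count therefore does not set members apart from other genes. Summed stromal markers in GE ranged over 34.4 to 60.6 RPKM on day 12, 48.3 to 151 on day 14 and 22.6 to 49.8 on day 16, and endothelial markers over 8.83 to 15.4, 29.9 to 128 and 12.7 to 28.0. Of the 17 stromal markers, 7, 11 and 6 reached 1 RPKM in a GE library of days 12, 14 and 16, and of the 8 endothelial markers 4, 7 and 5 did. On day 14, 3 stromal markers (HAND2, S100A4 and CNN1) and 0 endothelial markers were at 0 in all GE libraries. Their part in these falls was not tested. From day 16 to day 20 limma called 0 members (0 at an unadjusted p under 0.05, edgeR 0; 0.308% of all genes, 0.119% higher and 0.189% lower).

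**Figure D2:**
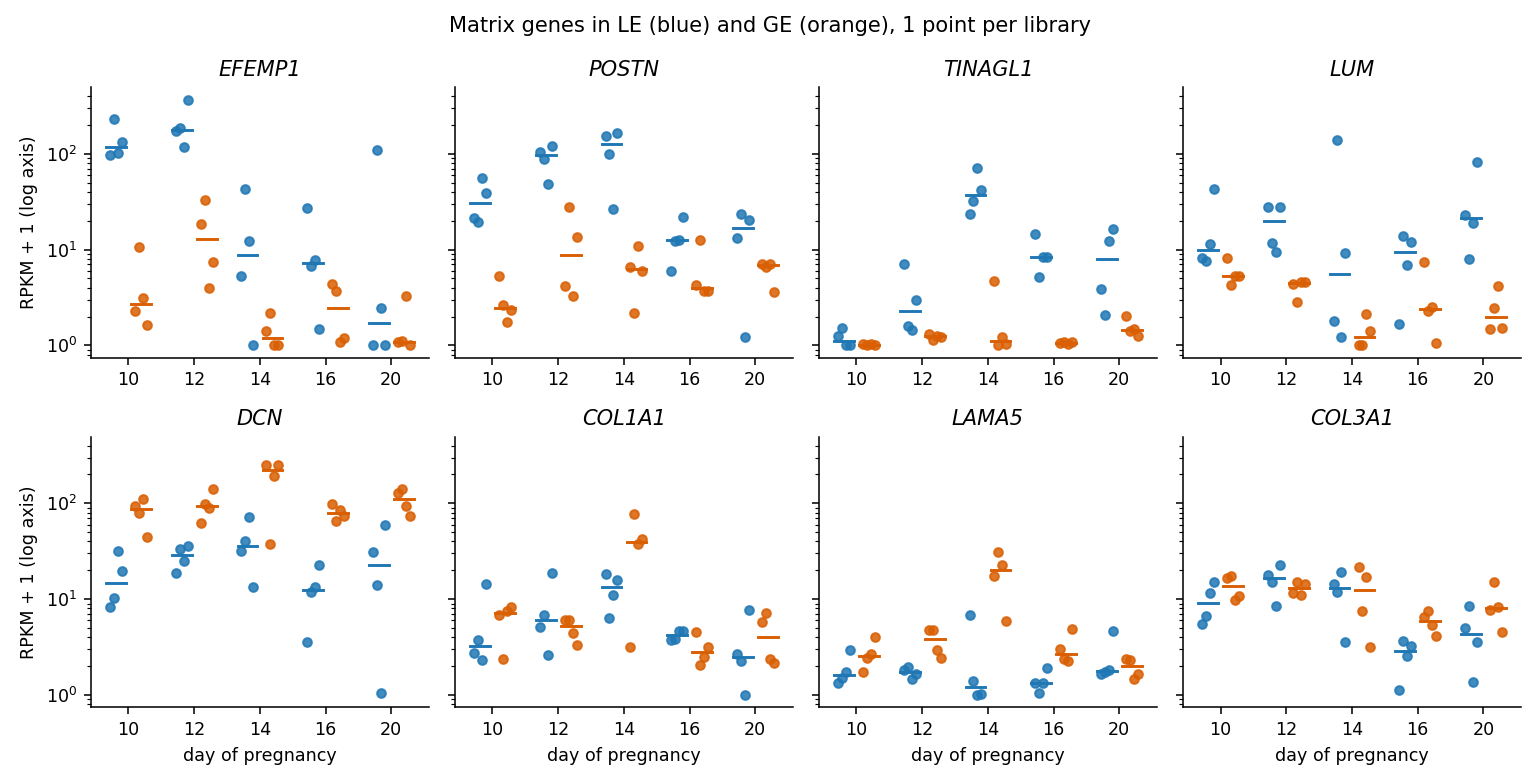
RPKM + 1 (log axis) of 8 matrix genes by day of pregnancy, 1 point per library, LE in blue and GE in orange, with a bar at the median of 4 libraries. EFEMP1 and POSTN are high in LE up to day 12 and day 14, TINAGL1 peaks in LE on day 14, and DCN lies higher in GE, where COL1A1 and LAMA5 peak on day 14.

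LE and GE were then set against each other, as the mean of the 5 within-day differences. Of 32 members tested, 9 were higher in LE and 10 lower (59.4% called, against 55.3% of all 11131 genes; 12.7% of all genes were higher and 42.6% lower). The median member difference was -0.07 in log2(RPKM + 1) and the median over all genes was -0.37. As deposited, 1409 genes were higher and 4742 lower in LE, and with TMM scaling 2293 were higher and 2862 lower, with a median of -0.08. A gene near the all-gene median is therefore not set apart by its sign.

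Among the members higher in LE were TINAGL1, POSTN and EFEMP1. TINAGL1 differed by 2.20 in log2(RPKM + 1) (SE 0.23, limma adjusted p = 3.20e-10). GE libraries never passed 3.74 RPKM, which was 1 day 14 library, and LE lay above GE without overlap on days 12, 14, 16 and 20. POSTN differed by 2.54 (SE 0.32, limma adjusted p = 1.88e-08). Its GE values were 4.29, 1.64, 0.760 and 1.33 RPKM on day 10, 3.14, 27.0, 2.24 and 12.6 on day 12, and 5.63, 1.19, 9.89 and 5.03 on day 14. LE lay above GE in all libraries on these days, and the tissues overlapped on days 16 and 20, when GE ran from 2.60 to 11.6. EFEMP1 differed by 3.00 (SE 0.45, limma adjusted p = 7.66e-07), without overlap on days 10 and 12 and with overlap from day 14 on. Over 45 alternative fits each kept its call, with differences of 2.10 to 5.07 for TINAGL1, 2.45 to 3.35 for POSTN and 2.69 to 4.90 for EFEMP1.

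The neighbouring genes LUM and DCN, with 0 protein-coding genes between them in the sheep assembly ARS-UI_Ramb_v3.0, split between the tissues. LUM was higher in LE by 2.11 (SE 0.39, limma adjusted p = 2.22e-05) and DCN lower by 2.45 (SE 0.33, limma adjusted p = 7.11e-08). LE libraries gave for LUM 7.21, 6.51, 10.4 and 41.9 RPKM on day 10, 26.6, 10.7, 8.44 and 27.1 on day 12, and 0.810, 139, 0.220 and 8.26 on day 14. They gave 0.660, 12.7, 5.93 and 10.9 on day 16 and 22.2, 7.05, 18.1 and 80.8 on day 20, while GE libraries stayed between 0 and 7.19 on all days. For DCN, LE libraries gave 7.32, 9.22, 30.5 and 18.6 RPKM on day 10, 17.6, 32.5, 23.7 and 34.5 on day 12, and 30.4, 39, 70.5 and 12.5 on day 14. They gave 2.57, 10.8, 12.3 and 21.6 on day 16 and 29.8, 13.1, 0.0600 and 58.5 on day 20, below all GE libraries of the same day except on day 14. The ratio of LUM to DCN RPKM had day medians of 0.345 to 1.06 in LE and of 0.000849 to 0.0597 in GE.

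Members lower in LE beside DCN included LAMA5 (by -1.14, SE 0.22, limma adjusted p = 3.43e-05), COL1A2 (by -1.37, SE 0.25, adjusted p = 1.98e-05), the fibril-associated chain COL12A1 (by -0.91, adjusted p = 0.000236) and the laminin gamma chain LAMC1 (by -0.79, adjusted p = 0.0104). The LAMC1 call was lost with TMM scaling and in edgeR on recovered reads, and the median over all genes was -0.37. On day 14 LE had 5.83, 0.410, 0.01 and 0.0300 RPKM of LAMA5, so replicate B02 alone reached the GE range. LAMB1, the beta 1 laminin chain, was higher in LE by 1.08 (SE 0.24, limma adjusted p = 0.000196). On day 16 it had 14.5, 8.72, 12.5 and 16.0 RPKM in LE and 5.27, 1.57, 1.28 and 0.71 in GE, without overlap, and it was the leading matrix gene of LE that day. The laminin chains thus did not all lie on the same side. COL1A1 was not called, with alternatives from -0.40 to 0.40.

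**Figure D3:**
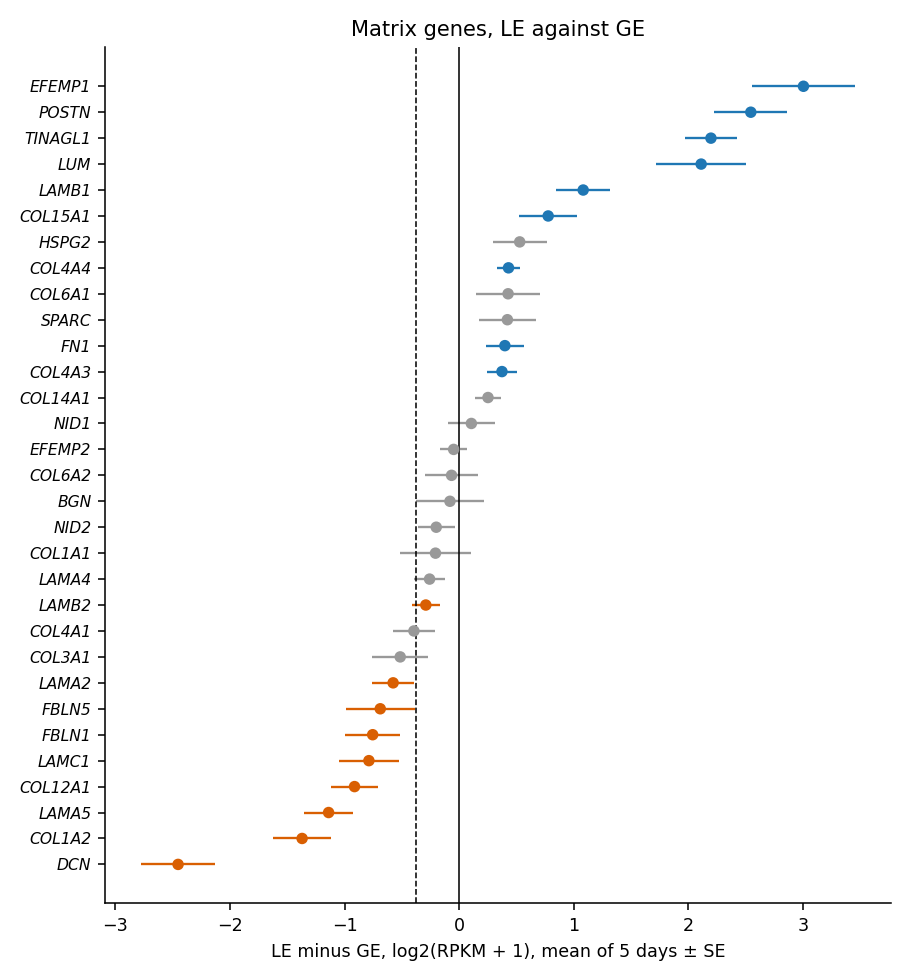
Difference between LE and GE in log2(RPKM + 1), mean of 5 days with its standard error, for 31 of the 32 matrix genes tested. Blue points were called higher in LE, orange points lower and grey points were not called, and the dashed line marks the median over all genes, -0.37. EFEMP1, POSTN, TINAGL1 and LUM lie farthest to the right and DCN farthest to the left.

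Within days limma called 5 members higher and 5 lower in LE on day 10 (31.3%, against 14.3% of all genes, 2.65% higher and 11.6% lower). On day 12 it called 3 higher (9.38%, against 12.2% of all genes, 3.03% higher and 9.17% lower), and on day 14 5 higher and 9 lower (43.8%, against 35.8%, 8.75% higher and 27.1% lower). On day 16 it called 2 in each direction (12.5%, against 22.5%, 6.76% higher and 15.7% lower), and on day 20 2 higher and 1 lower (9.38%, against 10.7%, 4.29% higher and 6.44% lower). On days 12 and 20 the members' share was near that of all genes, and on day 16 it was lower, with 3, 3 and 4 members called. By direction, 9.38%, 6.25% and 6.25% of members were higher in LE on days 12, 16 and 20, against 3.03%, 6.76% and 4.29% of all genes. Those lower were 0%, 6.25% and 3.13%, against 9.17%, 15.7% and 6.44%. With so few calls, these shares do not set members apart from other genes. The day 10 count was 5 without LE replicate 03 and 6 without GE replicate 02 or 08, and the day 20 count was 5 without LE replicate 19. COL15A1 was higher in LE on day 14 by 2.86 in log2(RPKM + 1) (SE 0.57, limma adjusted p = 0.000148), with GE libraries of that day at 0.0200 to 1.12 RPKM. The call was kept with each library left out, but the difference was 1.89 without B06, the LE library with the most VIM. The change of a gene over a step was also compared between the tissues. Limma called TINAGL1 from day 12 to day 14 (3.13% of members, against 2.61% of all genes, 0.773% upward and 1.84% downward), with an LE change exceeding the GE change by 3.54 (SE 0.72, adjusted p = 0.00526). In edgeR on recovered reads that difference was 2.56 with an adjusted p of 0.251, and 3 members were called without day 14 LE replicate B02 and 2 without GE replicate B07. LAMA5 and COL1A1, called in GE and not in LE from day 12 to day 14 and from day 14 to day 16, were not called for the difference at either step (limma adjusted p of 0.0784 and 0.0713 for LAMA5 and of 0.462 and 0.392 for COL1A1). At the other 3 steps limma called 0 members for the difference, against 0.35% (0.198% upward, 0.153% downward), 4.16% (3.15% and 1.01%) and 0.467% (0.234% and 0.234%) of all genes, with 2, 9 and 0 at an unadjusted p under 0.05 and 0, 7 and 0 called by edgeR. The 0 from day 14 to day 16 became 4 without GE replicate B07. The edgeR counts stand without the share of all genes that edgeR called.

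Conceptus libraries of day 16 differed widely from each other in matrix genes. Day 16 replicate 4 held 0.00721% of exon reads in fibrillar collagens and replicate 5 held 0.908%. Among the 52 members that rose from day 14 to day 20, replicate 4 was the lowest day 16 library for 44 (84.6%, against 44% of all 4902 genes that rose) and replicate 5 the highest for 44 (84.6%, against 52.4%). Its summed stromal markers were 27.0 RPKM against 150.1 to 285 in the other day 16 libraries, and day 14 had 63.3 to 132. Its endoderm markers were 377 RPKM against 947 to 1984, and its mesoderm markers were 131 RPKM against 112 to 166. The part of cell makeup was not tested, and in a whole conceptus fewer cells of a type and less RNA per cell cannot be told apart. Without that library all 39 calls from day 14 to day 16 were kept, and 35 of the 39 from day 16 to day 20, the others being COL7A1, COL9A1, COL9A2 and NID2.

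From day 14 to day 16, 38 of 58 members tested rose and 1 fell (edgeR; 67.2% of members called, against 54.6% of all 13202 genes, of which 28.1% rose and 26.5% fell). The median member change was 2.10 in log2 counts and the median over all genes was 0.05. Without day 16 replicate 4 the count was 47, and without replicate 5 it was 24. From day 16 to day 20, again 38 rose and 1 fell (67.2%, against 41.1% of all genes; 20.6% rose and 20.5% fell), with a median of 2.08 against 0.01, and 37 were called without day 16 replicate 4. The count was 26 without day 16 replicate 2 and 27 without replicate 1. From day 14 to day 20, which does not use the day 16 libraries for its difference, 52 rose and 2 fell (93.1%, against 70.1% of all genes; 37.1% rose and 32.9% fell), with a median of 4.34 against 0.09, and 52 to 56 were called with 1 library left out.

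All 10 fibrillar collagens tested rose from day 14 to day 16 and from day 14 to day 20, with median changes of 2.88 and 5.70, where 28.1% and 37.1% of all genes rose. All 10 calls of the first step were kept without day 16 replicate 4, but 5 were lost without replicate 5, and 3 of the 8 that limma tested on log2(RPKM + 1), which were COL11A1, COL2A1 and COL3A1, were not called by it. With 1 library left out, 5 to 10 of them stayed called at that step and 9 or 10 from day 14 to day 20, where COL2A1 was the one lost, in limma too. COL1A1 had 6.51, 10.1, 2.97 and 3.25 RPKM on day 14, 69.2, 101, 1.35 and 303 on day 16, and 1034, 1960.5, 779 and 454 on day 20. Day 16 replicate 4 lay below every day 14 library, the other day 16 libraries above them, and every day 20 library above all of day 16. COL1A1 rose by 3.96 in log2 from day 14 to day 16 (SE 1.08, edgeR adjusted p = 0.00885; 4.36 without replicate 4) and by 7.16 from day 14 to day 20 (SE 1.25, edgeR adjusted p = 0.000296). COL3A1 had 14.0, 35.5, 10.2 and 11.5 RPKM on day 14, 104, 147, 4.48 and 596 on day 16, and 2652, 7185, 3020.2 and 2059.8 on day 20, when it ranked 8 of all genes. It rose by 7.36 from day 14 to day 20 (SE 1.22, edgeR adjusted p = 0.000205), while its call from day 14 to day 16 (3.16, adjusted p = 0.0192) was lost without day 16 replicate 5 (1.90, adjusted p = 0.088) or day 14 replicates 3 or 4. The ratio of COL1A1 to COL1A2 stayed between 0.814 and 1.51 over these 12 libraries. It was 1.31 to 3.15 in the day 12 conceptuses and 0.526 to 44.4 in the day 14 LE libraries, both amplified. COL1A2 had 23 to 576 reads in those LE libraries, 5 to 51 in the day 12 conceptuses and 79 to 110529 in the later ones. The cause of the difference in ratios was not tested.

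**Figure D4:**
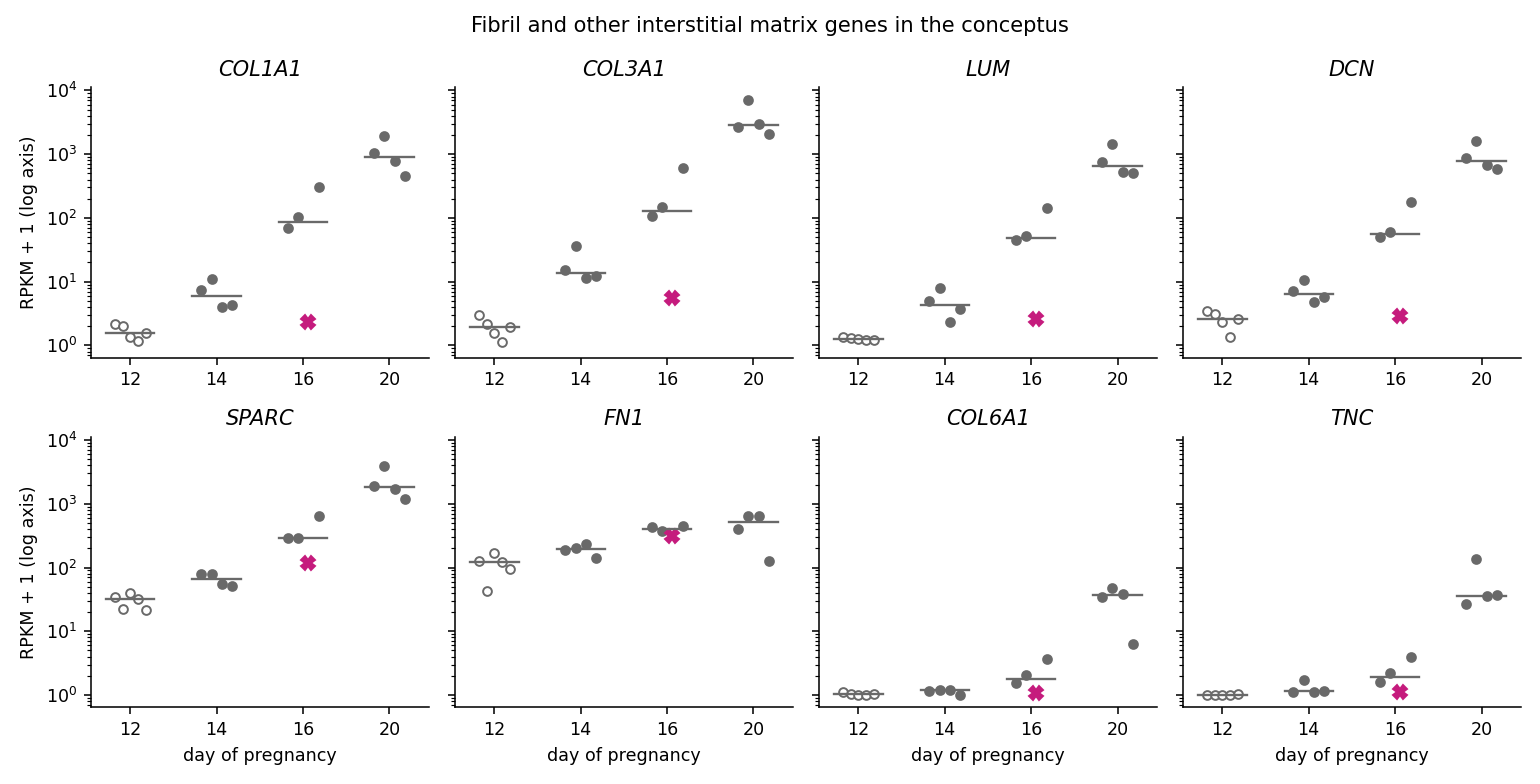
RPKM + 1 (log axis) of 8 fibril and interstitial matrix genes in conceptuses by day of pregnancy, 1 point per library with a bar at the median. Open circles are the amplified day 12 libraries and the cross is day 16 replicate 4, which lies with or below the day 14 libraries for COL1A1, COL3A1, LUM and DCN.

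The fibril-binding proteoglycans followed the same order of libraries. LUM had 3.91, 6.85, 1.30 and 2.76 RPKM on day 14, 44.1, 51.2, 1.55 and 144 on day 16, and 762, 1449, 521 and 503 on day 20, a rise of 7.41 in log2 from day 14 to day 20 (SE 1.10, edgeR adjusted p = 9.13e-05). DCN rose by 6.93 (SE 1.04, edgeR adjusted p = 9.97e-05), from 3.71 to 9.58 RPKM on day 14 to 594 to 1611 on day 20. The ratio of LUM to DCN RPKM was 0.769 to 0.907 in the 8 libraries of days 16 and 20, unlike in GE. BGN (biglycan) had 0.366, 0.377, 0.205 and 0.234 RPKM on day 14, 1.78, 1.99, 0.151 and 6.18 on day 16, and 62.8, 82.4, 39.4 and 32.1 on day 20. Its step from day 16 to day 20 was 4.48 (SE 0.65, edgeR adjusted p = 0.000407; 4.08 without replicate 4), with no overlap between these days. COL6A1 had 0.0581 to 2.64 RPKM on day 16 and 33, 47.6, 38 and 5.39 on day 20 and rose by 4.90 in log2 (SE 0.83, edgeR adjusted p = 0.000966; 4.5 without replicate 4).

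Matrix glycoproteins showed unlike courses. SPARC had 77.6, 77, 54.2 and 51 RPKM on day 14, 289, 287, 117 and 631 on day 16, and 1890.4, 3949, 1734 and 1189 on day 20. No library of a day overlapped the next day, and SPARC rose by 1.93 (SE 0.47, edgeR adjusted p = 0.00453) and then by 2.77 (SE 0.48, edgeR adjusted p = 0.00106). Without replicate 4 the SPARC changes were 2.21 and 2.48. FN1 was the most abundant matrix transcript on days 12, 14 and 16, ranking 183, 375 and 188 of all genes. It had 125, 41.8, 166, 121 and 95.3 RPKM on day 12, 189, 204, 229 and 139 on day 14, 426, 377, 316 and 454 on day 16, and 408, 644, 651 and 127 on day 20. Its change from day 14 to day 20 was 0.89 (SE 0.39, edgeR adjusted p = 0.0554), and the ratio of FN1 to COL1A1 RPKM had medians of 35.9 on day 14 and 0.362 on day 20. TNC (tenascin-C, a glycoprotein of developing mesenchyme) had 0.122 to 2.99 RPKM on day 16 and 26.1, 135, 34.6 and 35.4 on day 20, a rise of 5.62 (SE 0.95, edgeR adjusted p = 0.000946; 5.24 without replicate 4).

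TINAGL1, POSTN and EFEMP1, markers of the gene set described above in LE, were also followed in the conceptus. TINAGL1 had 0.706, 0.989, 0.714 and 0.83 RPKM on day 14, 4.48, 4.22, 1.15 and 4.36 on day 16, and 14.2, 10.5, 16.7 and 28.6 on day 20, rising at both steps without overlap (4.07 in log2 from day 14 to day 20, SE 0.44, edgeR adjusted p = 8.27e-06). POSTN had at most 0.453 RPKM in the libraries of days 14 and 16, then 52.2, 2.84, 1.01 and 0.994 on day 20. Replicate 1, with 2702 reads, held most of the signal, and the other day 20 libraries had 51 to 125 reads. Its rise from day 16 to day 20 was 5.54 (SE 1.37, edgeR adjusted p = 0.00767) and 2.47 without that library (adjusted p = 0.0343). EFEMP1 had 24.9, 51, 27.1, 33 and 37.2 RPKM on day 12 and 0.130, 0.560, 0.290 and 0.213 on day 14, from 714 to 1740 reads per library down to 3 to 14. It then had 1.48, 0.819, 0.280 and 1.85 RPKM on day 16 and 12.9, 9.71, 13.1 and 1.05 on day 20, a rise of 3.07 from day 16 (SE 0.70, edgeR adjusted p = 0.00494; 2.75 without replicate 4). Its fall from day 12 to day 14 was 4.74 in log2(RPKM + 1) (SE 0.43, limma adjusted p = 1.48e-08) and 4.74 to 8.07 over the alternatives.

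EFEMP1 thus fell from day 12 to day 14 in LE, in GE and in the conceptus. The libraries are separate, although LE and GE of an animal came from the same slide. In the epithelia all libraries were amplified, whereas in the conceptus the preparation changed at that step. EFEMP2 (fibulin-4), its relative in elastic fibre assembly, took another course in the conceptus. It had 0.412, 0.573, 0.173 and 0.338 RPKM on day 14, 4.41, 2.98, 1.30 and 9.61 on day 16, and 20.9, 31.0, 8.61 and 9.62 on day 20, rising by 5.18 in log2 from day 14 to day 20 (SE 0.68, edgeR adjusted p = 3.62e-05).

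Laminin chains were already among the most abundant matrix transcripts on day 14. Of 10 laminin chains tested, 6 rose and 1 fell from day 14 to day 20, with a median change of 0.95 (37.1% of all genes rose and 32.9% fell), against 5 of 5 collagen IV chains with a median of 4.88. The gamma 1 chain LAMC1, a partner in most laminins, had 55.6, 70.7, 85.1 and 58.8 RPKM on day 14 and 65.4, 90.2, 74.0 and 53.3 on day 20, with overlap (-0.30 in log2, SE 0.19, edgeR adjusted p = 0.166). LAMB1 rose by 0.71 over the same days (SE 0.23, edgeR adjusted p = 0.0165), a call lost with day 12 added to the fit and without day 20 replicate 3 (0.43, adjusted p = 0.0575).

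The alpha chains exchanged their order. LAMA1, the alpha chain of the first laminin of the embryo, had 15.7, 19.0, 23.3 and 14.0 RPKM on day 14, 25.2, 16.1, 10.1 and 14.2 on day 16, and 2.03, 4.74, 9.72 and 0.559 on day 20. LAMA5 had 9.97, 9.38, 9.84 and 9.64 RPKM on day 14, 20.2, 25.4, 30.0 and 27.4 on day 16, and 18.1, 22.9, 28.5 and 23.4 on day 20. The ratio of LAMA5 to LAMA1 RPKM was above 1 in 0 of 5 libraries on day 12 and 0 of 4 on day 14, in 3 of 4 on day 16 and in 4 of 4 on day 20, with medians of 0.193, 0.565, 1.75 and 6.89. LAMA1 fell from day 14 to day 20 by 2.44 in log2 (SE 0.65, edgeR adjusted p = 0.00512), a call kept in every alternative run. Its fall from day 16 to day 20 was 1.91 (SE 0.64, edgeR adjusted p = 0.0311) and was lost without day 16 replicates 1 or 2 or day 20 replicates 1 or 3 (adjusted p from 0.057 to 0.078). LAMA5 rose by 1.00 from day 14 to day 16 (SE 0.15, edgeR adjusted p = 0.000273; 0.91 without replicate 4), and day 16 replicate 4, low in fibrillar collagens, had the highest LAMA5 of its day. LAMA4, the alpha chain of a vascular laminin, had 0.112 to 0.630 RPKM on day 14, 5.87, 4.42, 0.0827 and 17.9 on day 16, and 40.9, 85.4, 21.0 and 24.3 on day 20, a rise of 6.51 from day 14 to day 20 (SE 1.15, edgeR adjusted p = 0.000329). Summed endothelial markers ranged over 1.91 to 3.57 RPKM on day 14, 9.32 to 44.5 on day 16 and 55.9 to 152 on day 20, with replicate 4 the lowest on day 16, and their part in LAMA4 was not tested.

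**Figure D5:**
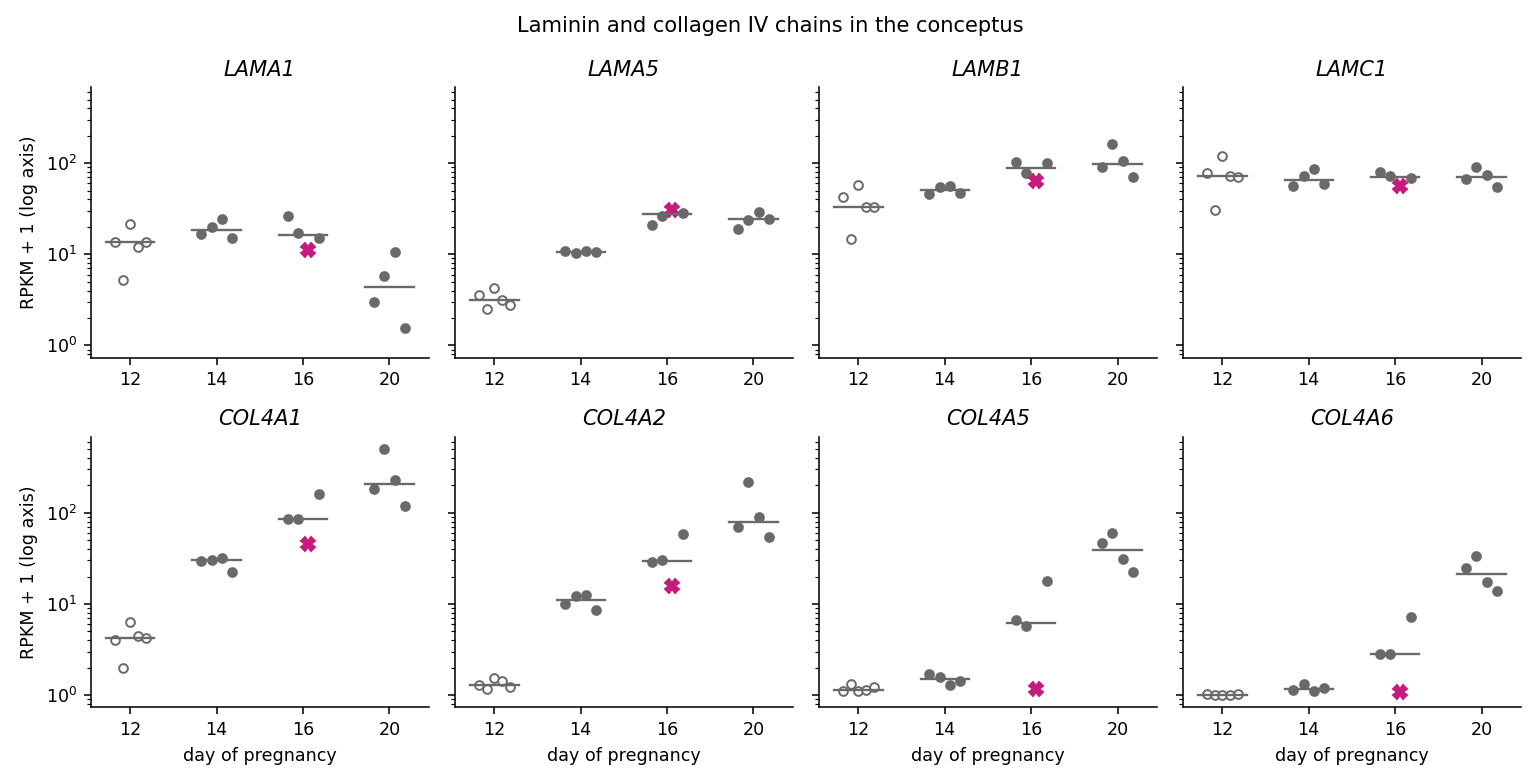
RPKM + 1 (log axis) of 4 laminin and 4 collagen IV chains in conceptuses by day of pregnancy, 1 point per library with a bar at the median. Open circles are the amplified day 12 libraries and the cross is day 16 replicate 4. LAMC1 keeps its level, LAMA1 is lower on day 20 and LAMA5 higher than on day 14, and COL4A5 and COL4A6 separate day 16 replicate 4 from its group.

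Collagen IV chains come from pairs of neighbouring genes. Both members of the pairs COL4A1 with COL4A2 and COL4A5 with COL4A6 rose from day 14 to day 20, while of the third pair COL4A4 rose and COL4A3 was too low to be tested. COL4A1 had 28.9, 29.4, 31.0 and 21.7 RPKM on day 14, 84.0, 84.1, 44.4 and 158 on day 16, and 182, 499, 227 and 117 on day 20, and COL4A2 had 9.04, 11.2, 11.5 and 7.51, then 28.2, 29.1, 14.6 and 58.2, then 68.6, 218, 90.0 and 52.8. Day 14 and day 16 libraries did not overlap, replicate 4 included, and the changes from day 14 to day 20 were 2.84 (SE 0.45, edgeR adjusted p = 0.000160) and 3.08 (SE 0.49, edgeR adjusted p = 0.000144). COL4A5 and COL4A6 started lower and rose further, by 5.93 and 6.45 over the same days, and in day 16 replicate 4 they were at 0.170 and 0.0784 RPKM, below the day 14 libraries. The linkers NID1, NID2 and HSPG2 rose from day 14 to day 20 by 1.66, 1.98 and 1.61, NID1 by 1.06 without day 20 replicate 3. COL18A1, the basement membrane collagen that yields endostatin, rose by 3.83. The hemidesmosome collagen COL17A1 fell by 1.75 (SE 0.47, edgeR adjusted p = 0.00541), at 0.217 to 1.22 RPKM on day 14 and 0.170 to 0.310 on day 20.

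From day 12 to day 14, with day and preparation confounded, limma called 12 members higher and 1 lower of 44 (29.5%, against 77.7% of all 12081 genes; 65.7% of all genes were higher and 12% lower). The median member change was 0.38 in log2(RPKM + 1) and the median over all genes was 0.94. LAMA5 changed by 1.74 (SE 0.16, limma adjusted p = 1.13e-08), from 2.57, 1.51, 3.29, 2.12 and 1.78 RPKM on day 12. COL4A1 changed by 2.84 (SE 0.39, adjusted p = 2.97e-06), from 3.06, 0.993, 5.35, 3.47 and 3.28 RPKM, and COL4A2 by 3.01 (SE 0.35, adjusted p = 3.90e-07), from 0.296, 0.177, 0.548, 0.418 and 0.218. The ratio of COL4A1 to COL4A2 was 5.61 to 15.0 on day 12 and 2.21 to 3.20 in all later conceptus libraries. With TMM scaling the changes of LAMA5 and COL4A1 were 0.79 and 1.84, and in edgeR on gene reads that of COL4A2 was 1.00, all still called. SPARC and NID2, called 1.14 higher each, turned sign with other scalings, as given in the closing section.

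Genes that make, crosslink or bind matrix were read from lists of other names. Of 23 collagen-processing genes tested in the conceptus, 20 rose and 3 fell from day 14 to day 20, with a median of 2.79, beside 0.09 over all genes (87.0% rose and 13.0% fell, against 37.1% and 32.9% of all genes). The crosslinking oxidases LOX and LOXL3 rose by 7.15 (SE 0.82, edgeR adjusted p = 1.2e-05) and 6.15 (SE 0.60, adjusted p = 3.8e-06), and those that fell were P4HB, PPIB and TGM2. Of 23 matrix receptor genes, 17 rose (73.9%, against 37.1% of all genes) and 1, ITGA5, a chain of the fibronectin receptor, fell by 1.55 (4.35%, against 32.9%), while the epithelial ITGB4 rose by 4.76 and the hyaluronan receptor CD44 by 5.47. Of 26 further matrix genes 22 rose and 0 fell (84.6% called higher, against 37.1% of all genes), among them elastin (ELN, 7.18) and fibromodulin (FMOD, 7.65).

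In LE the integrin chain ITGB6 rose by 2.89 in log2(RPKM + 1) from day 14 to day 16 (SE 0.56, limma adjusted p = 0.003), 1 of 3 rises among 18 receptor genes tested and 0 falls (16.7%, against 11% of all genes that rose). P4HA1, a collagen prolyl hydroxylase subunit, fell by 2.98 from day 12 to day 14 (SE 0.52, adjusted p = 0.0014) and was the only call among 13 processing genes in LE at that step (7.69%, against 13.1% of all genes), so their share lay below that of all genes. The matrilin MATN2 rose by 3.68 (SE 0.41, adjusted p = 4.6e-05) from day 12 to day 14, and PRELP fell by 1.50 (adjusted p = 0.020), so that of 10 further matrix genes tested 10% were higher and 10% lower, against 3.39% and 9.76% of all genes. In GE the processing genes TGM2, P4HB and PCOLCE rose among 12 tested from day 12 to day 14 (25.0%, against 6.29% of all genes), and P4HB, PPIB and PCOLCE fell from day 14 to day 16 (25.0%, against 4.89%). DAG1, the dystroglycan receptor of laminins, rose by 1.81 in GE from day 12 to day 14, the 1 call among 15 receptor genes (6.67%, against 6.29% of all genes that rose). It fell by 1.73 from day 14 to day 16, as did BCAM by 1.65 (13.3%, against 4.89% of all genes that fell). Between the tissues 21.1% of 19 receptor genes were higher in LE and 10.5% lower, against 12.7% and 42.6% of all genes. ITGA5 (1.31, adjusted p = 2.7e-08) and ITGB6 (1.50, adjusted p = 4.9e-08) were among those higher in LE. Of 15 further matrix genes 26.7% were higher in LE and 33.3% lower, the latter including the basement membrane linker genes FREM1 and FREM2 (-1.78 and -1.45).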

How the data were processed

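RNA of 57 libraries was measured. Deposited RPKM values are, per the file headers, RPKM as the authors calculated it, and the values themselves fit exon reads over exon length and mapped reads. The deposited gene read counts of the conceptus are the authors' sums per gene, which on day 12 include reads outside exons. Reads were mapped to the genome build Oar_v3.1, per the submitters' processing notes. The aligner, the counting rule and the gene annotation were not given in the sources used. Of the 25197 features, 23 had no identifier and were left out.

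LE, GE and the conceptus step from day 12 to day 14 were tested with limma (trend) on log2(RPKM + 1), over genes at 1 RPKM or more in at least 4 libraries fitted. Conceptus days 14, 16 and 20 were tested with edgeR's quasi-likelihood test on the counts with TMM scaling and its own filter. Adjusted p-values are Benjamini-Hochberg over all genes of a comparison, and a gene is said to rise, fall or be called at an adjusted p under 0.05. Low RPKM values fall on whole multiples of what 1 read is worth, which gave the depth of a library (checked within 0.1 read on low values of short genes). Reads were then recovered, by rounding, for the 18942 features with an exon length, for an edgeR alternative. RPKM values of LE and GE are themselves rounded, so recovered reads of long genes there are less exact. Other alternatives were a pseudocount of 0.1, no filter, TMM scaling, DESeq2, a replicate block, day 12 in the fit, and each library left out. The scripts were tested on simulated data. Members, lists and tests were chosen with earlier results of these data known, so no list is independent evidence of its direction. Values in every library are given for the 4 markers, the leading member of each tissue and up to 8 members per family of comparisons with the smallest adjusted p and a group mean of at least 10 RPKM, and others were chosen after their values were seen. Neighbouring genes were read from the RefSeq table of ARS-UI_Ramb_v3.0, which holds 70 members. Intervals are not given for single libraries, and depth limits low values. Scripts ran under Python 3.11.15 and R 4.3.3, with DESeq2 1.42.0, edgeR 4.0.16 and limma 3.58.1. The values of 1 member are not reported here, in text or figures, though counts over members include it.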

Additional observations from a re-analysis of the deposited data

Results flagged for a closer look

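In 5 of 64 groups of libraries examined, 1 library lay far from the others of its group by Dixon's criterion, which chance meets in about 1 of 20 groups. COL15A1 was 86.29 RPKM in day 14 LE replicate B06 and 3.27 to 7.28 in the other libraries of that group. EFEMP1 was 108.36 RPKM in day 20 LE replicate 19 and 0 to 1.43 in the others. These are also the LE libraries with the most VIM on their days. VIM is 1 of 17 stromal markers and made most of the stromal sum in both libraries. The part of stromal RNA in these values was not tested. LUM was 41.87 RPKM in day 10 LE replicate 07, against 6.51 to 10.43, and 138.6 RPKM in day 14 LE replicate B04, against 0.22 to 8.26. POSTN was 52.2 RPKM in day 20 conceptus replicate 1 and 0.994 to 2.84 in the others.

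The change of TINAGL1 from day 12 to day 14 differed between LE and GE, by 3.54 in log2(RPKM + 1) (SE 0.72, limma adjusted p = 0.00526). Over the alternatives the difference ran from 2.56 to 4.54, with adjusted p-values from 0.000786 to 0.251, the highest of them from edgeR on recovered reads.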

How the results depend on the processing

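Counts of called members that moved by more than 1.5 times under another setting were these. They are given without the share of all genes called under the same setting. In LE from day 10 to day 12 the count of 1 became 0 with a pseudocount of 0.1 and 0 in edgeR on recovered reads. From day 14 to day 16, edgeR gave 10 in LE and 17 in GE in place of 5 and 7. For LE against GE, TMM scaling gave 6 on day 10 and 5 on day 12, edgeR gave 7 on day 16 and 6 on day 20, and no filter gave 5 on day 20. For the difference of changes, TMM scaling gave 1 from day 10 to day 12 in place of 0, and from day 14 to day 16 a pseudocount of 0.1 gave 1, TMM scaling 1 and edgeR 7. In the conceptus from day 14 to day 16, limma gave 25 in place of 39. From day 12 to day 14 a pseudocount of 0.1 gave 26 in place of 13, edgeR on gene reads 32 and edgeR on recovered exon reads, an alternative chosen after seeing the data, 31. The cause was not tested.

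Turned in sign from day 12 to day 14 in the conceptus were COL23A1 in edgeR on gene reads (-0.0416), SPARC with TMM scaling (-0.0740) and on recovered exon reads (-0.0532), and NID2 with TMM scaling (-0.0376) and on recovered exon reads (-0.18).

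With 1 library left out, counts ran from 0 to 1, 2 to 6, 1 to 6 and 0 to 0 over the 4 LE steps, and from 0 to 0, 3 to 6, 4 to 9 and 0 to 0 over the GE steps. For LE against GE they ran from 5 to 9, 2 to 3, 11 to 15, 3 to 4 and 2 to 5 on the 5 days and from 16 to 21 for the mean. For the difference of changes they ran from 0 to 0, 1 to 3, 0 to 4 and 0 to 0. In the conceptus they ran from 24 to 47, 26 to 45 and 52 to 56 for days 14 to 16, 16 to 20 and 14 to 20, and from 12 to 14 for days 12 to 14.

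Replicate numbers were also used as a block. Same-numbered conceptus libraries deviated together with correlations from -0.292 to 0.356, and neighbouring LE and GE numbers from -0.089 to 0.222, with 15 of 20 best matched to the neighbour, a hint from the data and not the design. The replicate block gave 21 calls from day 14 to day 16 in the conceptus, 27 from day 16 to day 20, 52 from day 14 to day 20 and 17 from day 12 to day 14. For LE against GE it gave 8, 2, 15, 5 and 4 on the 5 days and 20 for the mean, and 0, 1, 0 and 0 for the difference of changes. Of the 10 fibrillar collagens called in the conceptus, the block left 3 called from day 14 to day 16 and 9 from day 14 to day 20. DESeq2 kept the 128 of 132 conceptus calls to which it gave an adjusted p, and gave none for 2 calls each of COL13A1 and POSTN. Depth and amplification limit what LE and GE show of genes below 1 RPKM.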

Other observations

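LAMA3, a laminin alpha chain of epithelial anchorage, was below the level filter in LE and was not tested. It was at most 0.340 RPKM in every LE library up to day 16, and on day 20 it was 18.8, 0, 6.47 and 6.88 RPKM, from 2609, 0, 1683 and 885 reads. The library at 0 was replicate 19. No GE library passed 0.780 RPKM, and conceptus libraries had 0.520 to 2.74 RPKM. COL13A1, a membrane collagen, was at 8.31 RPKM in day 14 LE replicate B08 and at most 0.190 in all other LE libraries, and COL17A1 was at 3.87 RPKM in day 16 LE replicate 31 and at most 0.410 in the others. COL2A1, the cartilage fibrillar collagen, had 1.72, 0.671, 0.0662 and 6.81 RPKM in day 16 conceptuses and 8.16, 0.199, 0.375 and 2.09 in day 20 conceptuses. On day 16 replicate 4 was the lowest and replicate 5 the highest, as for COL1A1. On day 20 its libraries did not follow the order seen for COL1A1. These genes were named after their values were seen.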
